A study of Mus musculus with 12 samples.

Results

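The cochlear base, the high-frequency end of the coiled hearing organ of C57BL/6 mice, was compared between postnatal day 8 (P8) and the day of birth (P0). The comparison rests on 4 of the 12 arrays of the series, all whose labels name the base: 2 arrays of P8-base and 2 of P0-base, 1 of each from a first and 1 from a second dissection set. The other 8 arrays hold the middle and the apex of the same pools of temporal bones. The pups were untreated and of no stated sex, and age is what separates the groups. Each array was hybridized with pooled RNA, so the 2 arrays of an age are 2 pools and not single animals. The p-values rest on the spread left in all 12 arrays after group means and dissection set, not on the basal pools alone. Pieces of the same pool were taken as independent in the main fit. The otic capsule, the bony shell of the inner ear, had been removed, and the organ of Corti, the spiral limbus and the lateral wall were in each piece.

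At birth the mouse cochlea does not yet hear. Over the first postnatal weeks hair cells acquire their channels and synapses, supporting cells stop being able to divide, the tectorial membrane is laid down over the hair cells, and the stria vascularis in the lateral wall begins to secrete the potassium-rich endolymph and to build the positive endocochlear potential. Maturation of the sensory epithelium runs from the base to the apex. Tissue from the wall and the modiolus side also carries fibrocytes, vessels, macrophages, nerve fibres with their Schwann cells and whatever bone and cartilage adheres, so a change in an array signal can come from any of them. In bulk RNA, fewer cells of a type and less RNA per cell cannot be told apart.

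Affymetrix Mouse Gene 1.0 ST arrays gave, after robust multiarray averaging (RMA) by the authors, 1 log2 signal per array for each entry, and a difference of 1 on this scale is a 2-fold change. A gene was tested in the base when its mean log2 signal was above 6 at P0 or at P8, which held for 16129 genes. Passing the test took an adjusted p (limma, Benjamini-Hochberg over all tested genes, dissection set as a block) under 0.05 and a change of at least 2-fold, and the words rose and fell are kept for such genes unless another limit is given. Differences are P8 minus P0 and are followed by the standard error (SE) of the fit, with n = 2 arrays per age. Over the tested genes, the 12 arrays had median log2 signals between 8.05 and 8.21. The arrays of 1 set deviated from their groups in a shared way, and these deviations correlated at 0.55 to 0.92 in 15 pairings of the groups. The SD between the 2 basal arrays had a median over genes of 0.176 at P0 and of 0.171 at P8.

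Between P0 and P8, 367 genes rose in the base and 186 fell, which is 2.28% and 1.15% of the tested genes. All 553 of them moved in the same direction in both dissection sets, which the test itself favours. Without a threshold of fold, 1472 genes (9.13%) were higher and 1094 (6.78%) lower at P8. Counts in the gene lists below stand beside these shares. Lists and members were chosen with earlier results of these data known, so such a comparison describes the lists and is no independent test. A rise of at least 4-fold was reached by 57 genes and a fall of that size by 15. The median difference over all tested genes was −0.01. The differences of both sets correlated with r = 0.77 over genes, which do not count as replicates. A fit on the 4 basal arrays alone, in which the other regions play no part, passed 370 genes as higher and 191 as lower, and all 553 genes were among them. Its differences equal those of the main fit by design. With 1 residual degree of freedom, its spread came mostly from that shared over genes. The overlap is therefore no independent support.

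**Figure D1:**
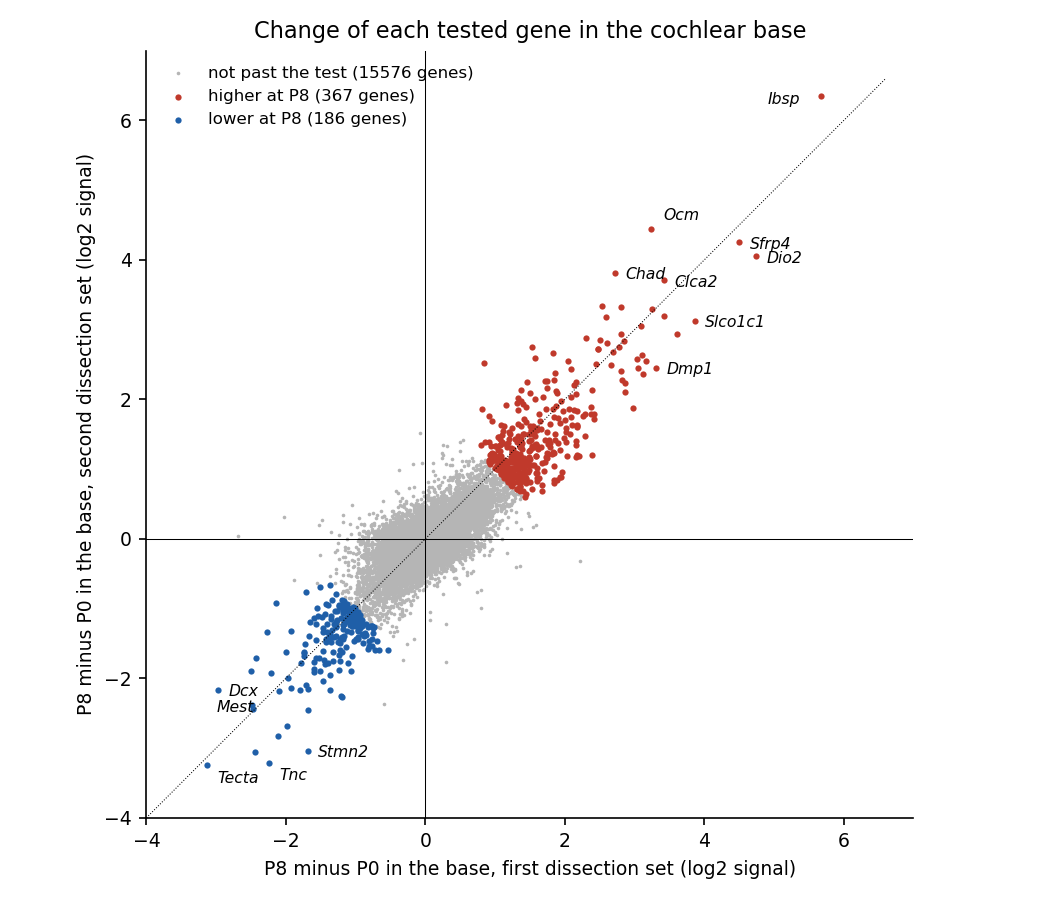
P8 minus P0 in the base for each of 16129 tested genes, first dissection set on the x axis and second on the y axis, both as differences in log2 signal, with the dotted line marking equal change. The 367 genes past the test as higher (red) and the 186 as lower (blue) lie in the upper right and the lower left, and Ibsp stands apart at 5.68 and 6.35.

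The largest rise was that of Ibsp, which encodes bone sialoprotein, an acidic matrix protein of mineralizing bone. Its log2 signal was 6.33 and 5.76 at P0 and 12.01 and 12.11 at P8 in the first and second set, a difference of 6.02 ± 0.39 (64.7-fold, adjusted p = 8.306e-06). Both P0 arrays lay near the level of 6 and both P8 arrays far above it. Dio2, the deiodinase that turns thyroxine into active thyroid hormone, came second, with 6.86 and 7.25 at P0 and 11.60 and 11.30 at P8 (4.40 ± 0.19, 21.05-fold, adjusted p = 3.961e-07). Sfrp4, a secreted antagonist of Wnt signalling, went from 6.12 and 5.73 to 10.62 and 9.98, and since its P0 mean lay under the level of 6 its rise is given as at least 19.7-fold (adjusted p = 6.709e-08). Ocm encodes oncomodulin, the calcium-binding protein of outer hair cells. Its signals were 6.04 and 6.18 at P0 against 9.27 and 10.63 at P8, so that the second set ended more than 1 log2 unit above the first (3.84 ± 0.30, 14.3-fold, adjusted p = 1.866e-05). In none of these 4 genes did the ages overlap.

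The remaining genes of the 15 with the largest rises fell into a few kinds. Phex (3.31 ± 0.23), Phospho1 (2.89 ± 0.29) and Dmp1 (2.88 ± 0.30) act in mineralization of bone matrix or in phosphate handling by osteocytes. Ucma (3.27 ± 0.25) and Chad (3.27 ± 0.26) encode proteins of cartilage matrix, and Emilin2 (3.28 ± 0.12) a glycoprotein of elastic fibres. Slco1c1 (3.49 ± 0.20) is a carrier of thyroxine and other organic anions at brain and inner ear barriers. Scin encodes scinderin, an actin-severing protein, and Clca2 a protein of the calcium-activated chloride channel regulator family. Both were under 6 at P0 in mean, and their rises were at least 6.47-fold and 9.23-fold. Hhatl (3.07 ± 0.19) and Rarres1 (2.94 ± 0.31), the latter a gene induced by retinoids, complete the 15, and the highest adjusted p among these 15 was 1.394e-04, that of Rarres1.

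**Figure D2:**
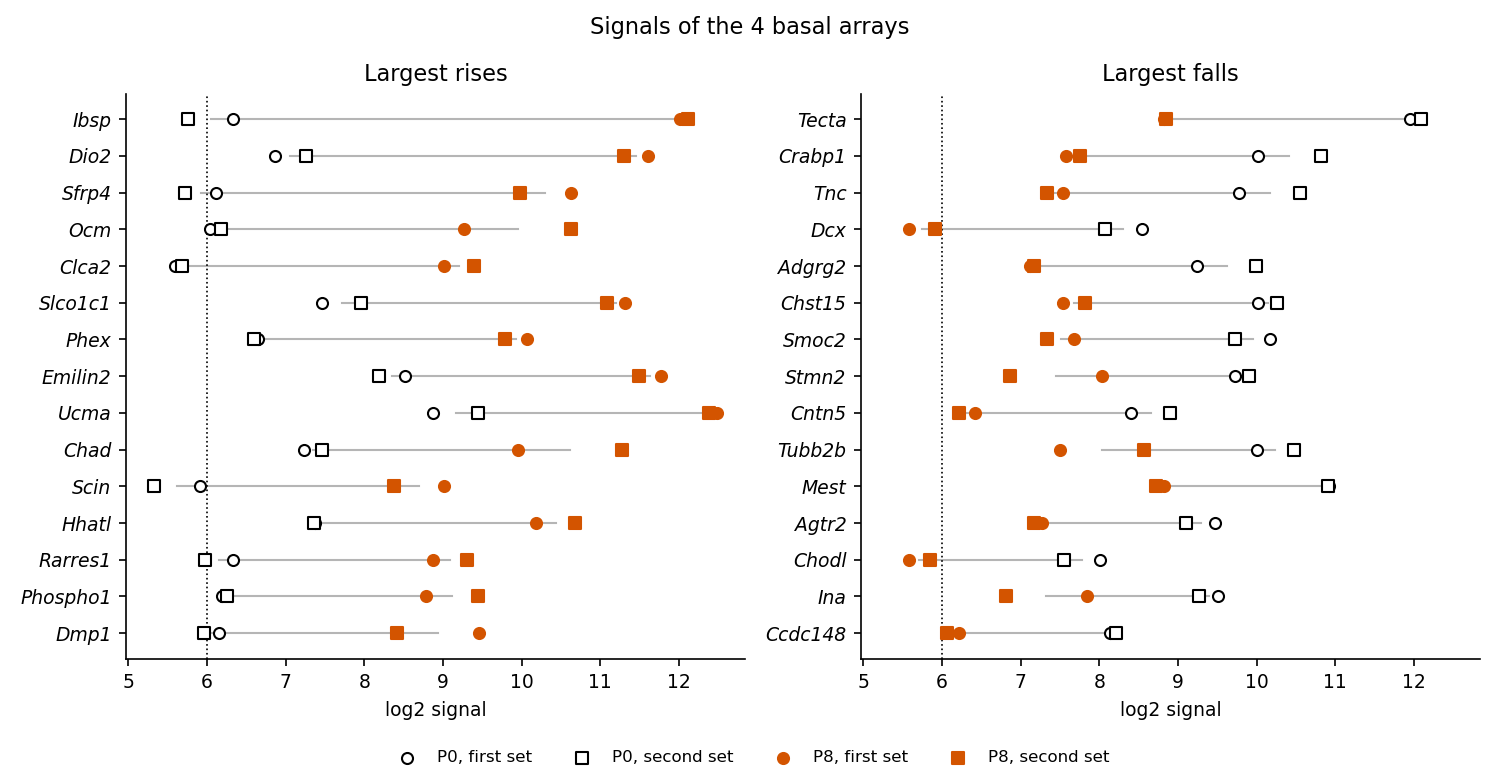
Log2 signals of the 4 basal arrays (x axis) for the 15 genes with the largest rise and the 15 with the largest fall, with open symbols for P0, filled symbols for P8, circles for the first and squares for the second set, a grey line between the means of the ages and a dotted line at 6. In each of the 30 genes the P0 and the P8 arrays lie apart, from 12.02 to 8.83 in mean for Tecta and from 6.05 to 12.06 for Ibsp.

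Tecta had the largest fall. It encodes alpha-tectorin, the main non-collagenous glycoprotein of the tectorial membrane. Its log2 signal was 11.96 and 12.09 at P0 and 8.82 and 8.85 at P8, a fall to 8.83 in mean that is 9.11-fold (−3.19 ± 0.11, adjusted p = 1.362e-07). The 2 arrays of each age differed by far less than the ages. Crabp1, a cytoplasmic binding protein of retinoic acid, followed with 10.01 and 10.81 at P0 and 7.58 and 7.75 at P8 (−2.75 ± 0.20, 6.72-fold, adjusted p = 1.385e-05). Tnc, tenascin C, a matricellular protein of developing basilar membrane and other embryonic matrices, went from 9.78 and 10.56 to 7.53 and 7.34 (−2.73 ± 0.23, 6.64-fold, adjusted p = 3.632e-05). Both P8 arrays of each of these 3 genes stayed above the level of 6, so the transcripts were lower but still measured. Among the other 12 large falls, Dcx, Stmn2 (−2.36 ± 0.39), Tubb2b (−2.20 ± 0.22) and Ina (−2.07 ± 0.35) encode proteins of the microtubules and intermediate filaments of young neurons. Smoc2 (−2.44 ± 0.15) and Chst15 (−2.46 ± 0.13) act on extracellular matrix, the latter as a sulphotransferase of chondroitin sulphate. Mest (−2.14 ± 0.12) is an imprinted gene of fetal tissue, Agtr2 (−2.07 ± 0.14) the type 2 angiotensin receptor, Adgrg2 (−2.47 ± 0.24) an adhesion G protein-coupled receptor, and Cntn5 (−2.33 ± 0.19) a contactin of neuronal surfaces. Chodl, a lectin-like membrane protein, was under 6 at P8 in mean, a fall of at least 3.44-fold, and Ccdc148, a coiled-coil protein, fell by 2.03 ± 0.14. Without the block for the dissection set, Tubb2b (adjusted p = 0.05733) and Ina (adjusted p = 0.0529) did not pass.

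Genes of mitosis were lower at P8. Of 55 tested genes of the cell cycle list, 15 fell by at least 2-fold against 1.15% of all tested genes, 47 were lower at any fold against 6.78%, none was higher, and all 55 had a negative difference, from −1.73 (Bub1) to −0.19 (Ndc80). The median over the list was −0.81, with −0.84 in the first set and −0.73 in the other, beside −0.01 over all tested genes. Bub1, a kinase of the spindle checkpoint, showed signals of 7.25 and 7.95 at P0 and of 5.66 and 6.08 at P8. This was a fall of at least 3.04-fold (adjusted p = 3.227e-05), as its P8 mean lay under 6. Top2a, the topoisomerase that untangles sister chromatids, went from 8.93 and 8.68 to 7.58 and 7.21 (−1.41 ± 0.11, adjusted p = 2.029e-05). Mki67, the proliferation antigen Ki-67, went from 8.52 and 9.02 to 7.06 and 7.69 (−1.40 ± 0.14, adjusted p = 1.196e-04). None of these 3 genes had overlapping ages. Plk1 (−1.28 ± 0.19), a mitotic kinase, Ccna2 (−1.19 ± 0.11) and Ccnb2 (−1.17 ± 0.14), the cyclins A2 and B2, and Kif11 (−1.17 ± 0.18), the kinesin that pushes spindle poles apart, also fell, as did Ncaph, Cks2, Racgap1, Knl1, Kif23, Kif15, Cenpe and Sgo2a. Cdk1, the kinase that these cyclins activate, was lower by 0.91 ± 0.21 (adjusted p = 0.01355) and so did not reach 2-fold. Plk1 did not reach 2-fold without the first-set array of P8 (−0.99) nor Kif11 without the second-set array of P0 (−0.83), and the mean over all entries of Top2a was −0.87. Without the block, Ccna2 (adjusted p = 0.06541), Ccnb2 (adjusted p = 0.3565), Cks2 (adjusted p = 0.8649), Racgap1 (adjusted p = 0.2728), Knl1 (adjusted p = 0.05219) and Sgo2a (adjusted p = 0.06959) did not pass, and the ages of Cks2 overlapped between the sets.

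Many promoters of mitotic genes hold the cell cycle homology region, which reads TTTGAA, and CCAAT boxes bound by NF-Y, and these genes are known to be shut down together when cells leave the cycle. Promoter sequences of RefSeq, on GRCm38.p6, cover 250 bases before and 50 after the start of a gene, and 46 of the 55 cell cycle genes were matched by symbol. TTTGAA on either strand was in the promoters of 33 of these 46 genes (71.7%), against 20.2% of the 27025 genes in the table and 14.4% of the 12666 tested genes with a promoter. CCAAT on either strand was in 33 (71.7%), against 41.1% of all and 41.6% of tested genes, and both motifs in 28 (60.9%), against 7.97% of all genes. Over all genes that fell, 32 of 140 with a promoter (22.9%) held TTTGAA, and over all that rose 40 of 283 (14.1%). Part of the 140 are 14 cell cycle genes that fell, of which 9 (64.3%) held TTTGAA, 11 (78.6%) CCAAT and 7 (50%) both. The stretches before the start of the 5 cell cycle genes with the largest falls and 1 promoter in the table show where the letters stand. Capitals mark TTTGAA or its reverse TTCAAA and CCAAT or its reverse ATTGG, each is given 5′ to 3′ on the strand of the gene, and none reaches into a transcript.
Bub1, chr2:127831860-127831979, minus strand: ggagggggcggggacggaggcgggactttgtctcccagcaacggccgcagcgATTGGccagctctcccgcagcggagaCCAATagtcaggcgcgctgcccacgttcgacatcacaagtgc
Top2a, chr11:99024200-99024309, minus strand: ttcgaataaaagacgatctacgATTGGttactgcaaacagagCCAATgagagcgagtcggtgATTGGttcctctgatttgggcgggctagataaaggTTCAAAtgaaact
Mki67, chr7:135716451-135716499, minus strand: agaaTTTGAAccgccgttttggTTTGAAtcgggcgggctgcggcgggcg
Plk1, chr7:122159315-122159434, plus strand: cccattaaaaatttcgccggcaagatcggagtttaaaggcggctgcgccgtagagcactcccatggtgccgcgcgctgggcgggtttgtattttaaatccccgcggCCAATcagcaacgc
Kif11, chr19:37376262-37376381, plus strand: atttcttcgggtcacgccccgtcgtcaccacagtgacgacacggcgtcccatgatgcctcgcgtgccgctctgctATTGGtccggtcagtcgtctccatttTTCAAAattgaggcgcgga
Counted from the start site of the promoter table, the reverse TTCAAA began at −23 in Top2a and at −19 in Kif11, and TTTGAA at −116 and −98 in Mki67. In Top2a and Mki67 the outermost annotated start lies further upstream than this site, and there the stretch shown ends. Bub1 held no TTTGAA in its 300 bases, and in Plk1 the match lay 31 bases after this site, outside the stretch shown. These matches are descriptions of sequence, and binding was not measured.

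Of 31 tested genes of DNA replication none rose or fell by 2-fold, while 13 were lower at any fold, against 6.78% of all tested genes. The median was −0.38, with −0.36 in the first set and −0.60 in the other. Mcm2, a subunit of the replicative helicase, was lower by 0.57 ± 0.14 (adjusted p = 0.01424), whereas Mcm3 (−0.26 ± 0.20) and Mcm4 (−0.43 ± 0.14) did not pass. Among 18 genes of cyclin-dependent kinase inhibitors, G1 cyclins and E2F factors none rose or fell by 2-fold and 4 were lower at any fold, against the same share. Cdkn1b, the inhibitor p27 that keeps supporting cells from dividing, stood at 10.20 and 10.22 at P0 and at 10.10 and 10.16 at P8 (−0.08 ± 0.11, adjusted p = 0.704). The 17 tested fetal growth and imprinted genes had a median of −0.62, with 5 that fell, against 1.15% of all tested genes, and none that rose. Igf2bp3, an RNA-binding protein of embryonic tissue, went from 8.47 and 8.68 to 7.03 and 6.89 (−1.61 ± 0.13, 3.06-fold, adjusted p = 2.55e-05), and Mest, Meg3 (−1.37 ± 0.15), Plagl1 (−1.14 ± 0.19) and Igf2bp1 (−1.08 ± 0.12) fell too. Igf2 itself, the fetal growth factor, was at 10.95 and 11.48 and then at 10.83 and 11.58 (−0.01 ± 0.14, adjusted p = 0.9719). Plagl1 (−0.95) and Igf2bp1 (−0.99) missed 2-fold without the second-set array of P0, Igf2bp1 also with the mean of its entries (−0.88), and Meg3 did not pass without the block (adjusted p = 0.1406).

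**Figure D3:**
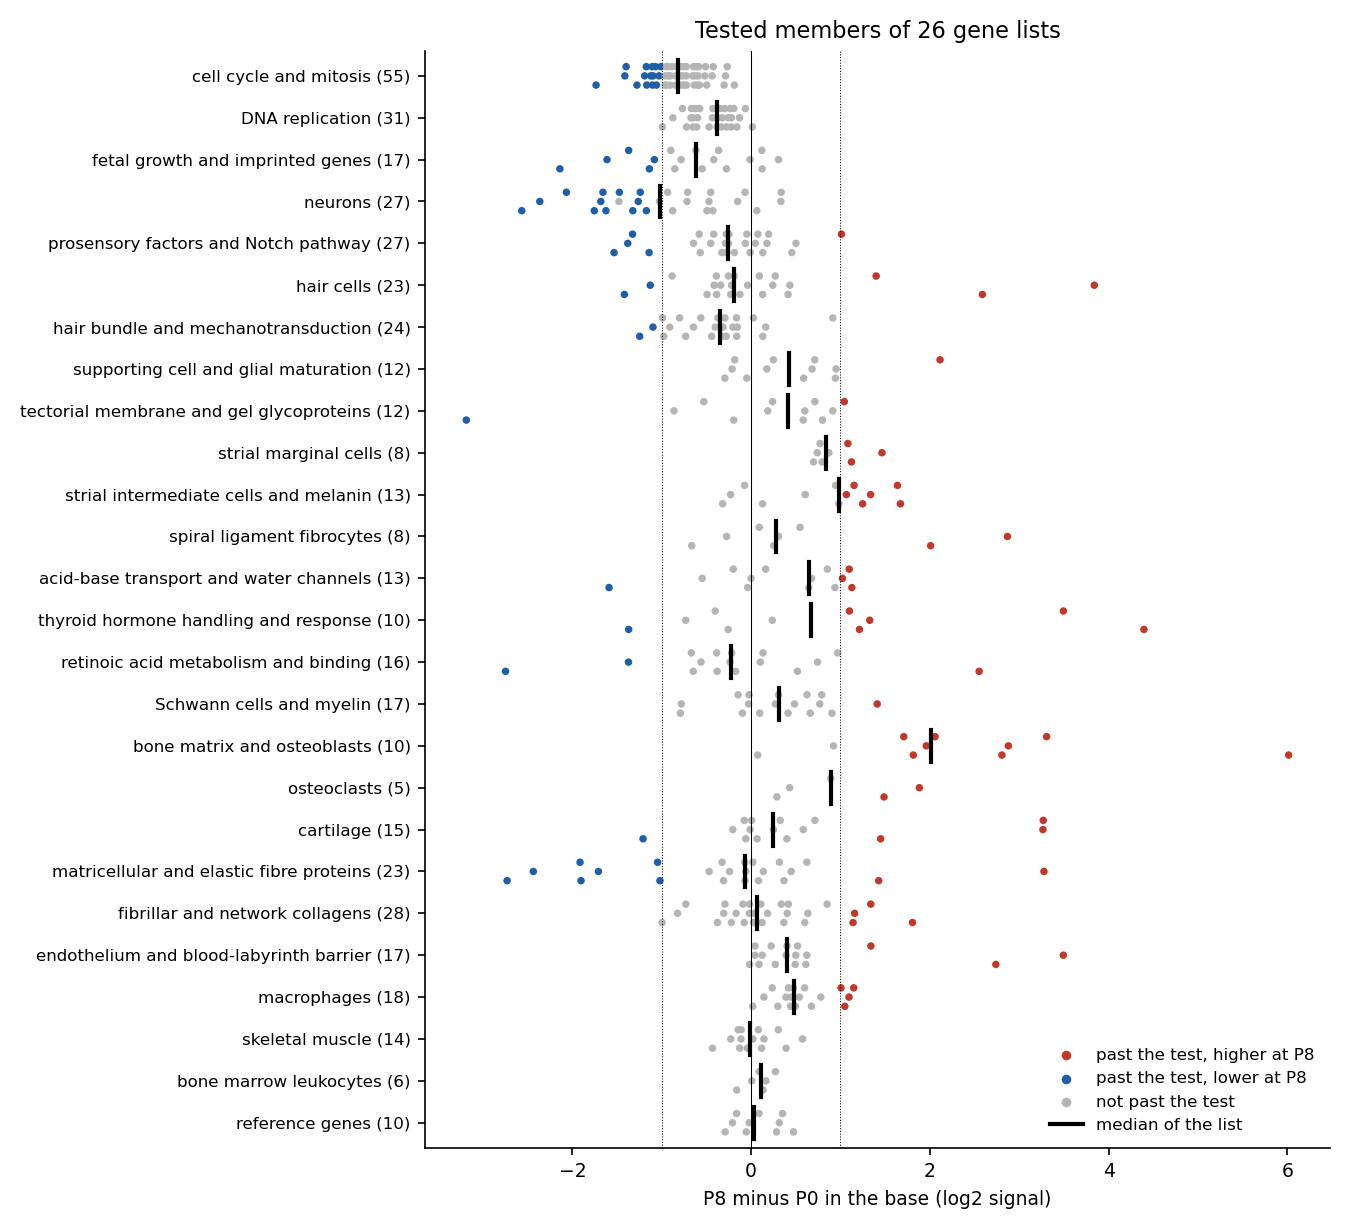
P8 minus P0 in the base, as a difference in log2 signal (x axis), for the tested members of 26 gene lists, with the number of members beside each name, red and blue points for genes past the test and a black bar at the median. The dotted lines mark 2-fold. The bars run from −1.02 for neurons and −0.81 for the cell cycle to 2.01 for bone matrix, with reference genes at 0.03.

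The lists of strial marginal cells and of intermediate cells and melanin both had positive medians. All 8 tested marginal cell genes were higher at P8 at any fold, with a median of 0.83, and 3 of them rose by 2-fold against 2.28% of all tested genes. Atp1b2, a beta subunit of the sodium-potassium pump, stood at 10.27 and 10.96 at P0 and at 11.88 and 12.29 at P8 (1.46 ± 0.18, 2.76-fold, adjusted p = 3.481e-04). Kcnq1 (1.12 ± 0.19) and Kcne1 (1.08 ± 0.12), the pore and the beta subunit of the potassium channel that secretes potassium into endolymph, rose as well. Slc12a2, the sodium-potassium-chloride cotransporter that feeds this channel, was higher by 0.74 ± 0.11 (adjusted p = 0.001214), under 2-fold. Of 13 tested genes of intermediate cells and melanin, 6 rose against 2.28% of all tested genes, 9 were higher at any fold against 9.13%, and the median was 0.98. The differences of 3 of the 13 were negative and did not pass: Kit (−0.32 ± 0.13), Oca2 (−0.23 ± 0.13) and Pmel (−0.07 ± 0.14). Kcnj10, the channel Kir4.1 of intermediate cells that generates the endocochlear potential, went from 7.27 and 8.14 to 8.64 and 10.11 (1.67 ± 0.22, 3.18-fold, adjusted p = 5.554e-04). Its second-set arrays were above those of the first set at either age. Dct, an enzyme of melanin synthesis, went from 10.98 and 11.12 to 12.33 and 12.44 (1.34 ± 0.11, adjusted p = 2.823e-05), and the arrays of an age lay close together. Slc45a2 (1.64 ± 0.18), Mitf (1.25 ± 0.13), Met (1.15 ± 0.19) and Tyr (1.07 ± 0.15), which act in melanosomes or in the growth of melanocytes, complete the 6. The ages of Kcne1 overlapped, since its first-set array of P8 (9.85) lay under its second-set array of P0 (9.98). Kcne1 missed 2-fold without the second-set array of P8 (0.99), Kcnq1 without the first-set array of P0 (0.87) and Mitf with the mean of its entries (0.87). Without the block, Kcne1 (adjusted p = 0.6079), Kcnj10 (adjusted p = 0.2336), Slc45a2 (adjusted p = 0.1222), Mitf (adjusted p = 0.1449), Met (adjusted p = 0.2781) and Tyr (adjusted p = 0.08066) did not pass.

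Few junction genes changed by 2-fold. Of 12 tight junction genes none rose and Cldn6, a claudin of embryonic epithelia, fell from 10.35 and 10.93 to 8.38 and 8.93 (−1.98 ± 0.23, 3.94-fold, adjusted p = 2.401e-04, and 0.08088 without the block). Cldn11, the claudin of strial basal cells, was at 10.80 and 11.22 and then at 11.07 and 11.60 (0.32 ± 0.11, adjusted p = 0.08637). At any fold 2 of the 12 were higher, Cldn8 (0.92 ± 0.17, adjusted p = 0.004189) and Ocln (0.41 ± 0.12, adjusted p = 0.0358). None of 10 connexins rose or fell by 2-fold. At any fold 3 of them were higher and 1 lower, against 9.13% and 6.78% of all tested genes. Gjb2 (0.59 ± 0.11) and Gjb6 (0.94 ± 0.18), the connexins 26 and 30 of the cochlear gap junction networks, were higher with adjusted p of 0.004722 and 0.005086. So was Gjc3 (0.77 ± 0.16, adjusted p = 0.006391), while Gjc1 was lower by 0.66 ± 0.11 (adjusted p = 0.001988). Of 8 spiral ligament genes 2 rose. Otos, otospiralin of fibrocytes, went from 6.79 and 6.78 to 9.60 and 9.71 (2.87 ± 0.23, 7.30-fold, adjusted p = 2.115e-05), and Slc4a10, a sodium-coupled bicarbonate transporter, from 6.57 and 7.02 to 8.83 and 8.78 (2.01 ± 0.23, adjusted p = 2.085e-04). Coch (0.31 ± 0.12) and Pou3f4 (0.09 ± 0.26), both also on the fibrocyte list, did not pass. At any fold 3 of the 8 were higher and 1 lower, against 9.13% and 6.78% of all tested genes. Car3 was higher by 0.55 ± 0.13 (adjusted p = 0.01293) and Aqp1 lower by 0.66 ± 0.14 (adjusted p = 0.007283). Among 13 genes of acid-base transport and water channels 3 rose and 1 fell, against 2.28% and 1.15% of all tested genes. The median was 0.64 (0.40 with no filter on low signal). The risers were the carbonic anhydrases Car13 (1.13 ± 0.12), Car14 (1.10 ± 0.13) and Car2 (1.02 ± 0.19), and the gene that fell was Atp6v1b1, a proton pump subunit, from 8.19 and 8.57 to 6.79 on both arrays (−1.59 ± 0.14, adjusted p = 3.93e-05). Slc26a4, pendrin, which exchanges chloride for bicarbonate, had a difference of 0.00 ± 0.12. Car2 missed 2-fold without the first-set array of P8 (0.92), without the second-set array of P0 (0.95) and after a second quantile normalization (0.97).

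Hair cell genes split. Of 23 tested genes 3 rose and 2 fell, against 2.28% and 1.15% of all tested genes, and the median was −0.19 (−0.12 without the first-set array of P0). Besides Ocm, Slc26a5, which encodes prestin, the motor protein of outer hair cells, rose from 6.05 and 5.65 to 8.35 and 8.53, at least 5.43-fold (adjusted p = 1.049e-05). Kcnma1, the BK potassium channel of mature hair cells, rose from 7.34 and 7.31 to 8.67 and 8.79 (1.40 ± 0.15, adjusted p = 1.653e-04, with 0.98 as the mean of its entries). Atoh1, the transcription factor that starts hair cell differentiation, fell from 7.71 and 7.44 to 6.07 and 6.25 (−1.42 ± 0.14, 2.67-fold, adjusted p = 8.213e-05). The factors that follow it, Pou4f3 (−0.39 ± 0.21, adjusted p = 0.2753) and Gfi1 (−0.23 ± 0.12, adjusted p = 0.2453), did not pass, nor did Myo7a (−0.25 ± 0.13) or Otof (−0.04 ± 0.12). Pvalb, parvalbumin, which neurons express too, fell by 1.13 ± 0.31, but its adjusted p of 0.03037 was between 0.09214 and 0.2119 when 1 of the 4 basal arrays was left out and 0.1507 without the block. Of the 24 genes of the hair bundle and its transduction channel none rose and the median was −0.35. By 2-fold 2 fell and at any fold 9 were lower, against 1.15% and 6.78% of all tested genes. The 2 channel genes went apart. Tmc1 was at 6.66 and 6.91 at P0 and at 7.81 and 7.59 at P8 (0.92 ± 0.15, adjusted p = 0.001939), and Tmc2 at 6.74 and 7.36 and then at 5.98 and 5.92, a fall of at least 2.07-fold (adjusted p = 0.002469). Myo3a, a stereocilia tip myosin, fell from 7.16 and 7.87 to 6.14 and 6.40 (−1.25 ± 0.16, adjusted p = 4.289e-04). Tmc2 missed 2-fold without the second-set array of P0 (−0.87) and without that of P8 (−0.93).

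Genes that specify the sensory patch went down in part. Of 27 prosensory and Notch pathway genes 4 fell and 1 rose, against 1.15% and 2.28% of all tested genes, and 9 were lower at any fold, against 6.78%. Prox1, a homeobox factor of supporting cells, fell from 7.84 and 8.19 to 6.51 and 6.45 (−1.53 ± 0.16, 2.90-fold, adjusted p = 1.164e-04). Sox2, needed to form the prosensory domain, fell from 9.15 and 9.06 to 7.79 and 7.66 (−1.38 ± 0.20, 2.60-fold, adjusted p = 9.799e-04). In both genes each P8 array was more than 1 log2 unit below each P0 array. Isl1 (−1.33 ± 0.14), a LIM homeodomain factor, and Jag1 (−1.14 ± 0.13), the Notch ligand of supporting cells, fell too. Id2, an inhibitor of basic helix-loop-helix factors, rose by 1.01 ± 0.17 (adjusted p = 0.002158, 0.2393 without the block), and missed 2-fold without the first-set array of either age (0.99 without P0 and 0.92 without P8). Among 12 genes of supporting cell and glial maturation S100b, a calcium-binding protein of supporting cells and glia, rose from 9.76 and 9.61 to 11.91 and 11.68 (2.11 ± 0.18, 4.33-fold, adjusted p = 3.68e-05), 6 were higher at any fold and none was lower. Glul, glutamine synthetase, was higher by 0.71 ± 0.17 (adjusted p = 0.01518). Slc1a3 (−0.29 ± 0.15, adjusted p = 0.2266) and Gfap (−0.05 ± 0.12, adjusted p = 0.8444) did not pass, and 4 of these 12 genes had a negative difference. Of 12 genes of the tectorial membrane and acellular gels 1 fell, Tecta, and 1 rose, Col11a2, by 1.04 ± 0.13. At any fold 6 were higher and 2 lower, against 9.13% and 6.78% of all tested genes, and the median was 0.41. Other collagens of this list were higher under 2-fold: Col11a1 (0.91 ± 0.11), Col9a1 (0.71 ± 0.12), Col9a3 (0.60 ± 0.12) and Col2a1 (0.58 ± 0.11). Tectb, beta-tectorin, moved against Tecta, from 10.95 and 11.39 to 11.95 and 11.98 (0.80 ± 0.14, adjusted p = 0.002605), and Otog, otogelin, was lower by 0.86 ± 0.11 (adjusted p = 4.434e-04). Col11a2 did not pass without the block (adjusted p = 0.6225) and missed 2-fold without the first-set array of P0 (0.998) or of P8 (0.86). Its ages overlapped, with signals of 10.10 and 9.03 at P0 and of 11.33 and 9.89 at P8.

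The neuron list supplied 12 of the 60 list genes that fell. Of 27 tested genes 12 fell by 2-fold against 1.15% of all tested genes, 15 were lower at any fold against 6.78%, none was higher, and the median was −1.02. Dcx, doublecortin of migrating young neurons, went from 8.55 and 8.07 to 5.58 and 5.91, at least 4.95-fold (adjusted p = 1.838e-05). Stmn2, a microtubule regulator of growing axons, went from 9.72 and 9.91 to 8.04 and 6.86 (−2.36 ± 0.39, 5.15-fold, adjusted p = 0.002107). Its P8 arrays differed by more than 1 log2 unit and still lay below both P0 arrays. Nefm, a neurofilament subunit, went from 8.88 and 8.06 to 7.41 and 6.02 (−1.75 ± 0.28, adjusted p = 0.00161) and Sncg, gamma-synuclein, from 10.32 and 9.33 to 8.58 and 7.71 (−1.68 ± 0.14, adjusted p = 3.632e-05). Elavl4, Ina, P2rx3 (−1.62 ± 0.23), Bex1 (−1.47 ± 0.42), Uchl1 (−1.32 ± 0.13), Syt1 (−1.26 ± 0.12), Gap43 (−1.24 ± 0.26) and Scn9a (−1.17 ± 0.16) complete the 12. Tubb3, the beta-tubulin of neurons, was at 8.23 and 6.83 at P0 and at 6.96 and 6.67 at P8 (−0.72 ± 0.33, adjusted p = 0.1863), so that 1 P0 array lay below 1 P8 array. The mean over the 4 defining neuron markers, Tubb3, Stmn2, Nefl and Snap25, was 8.64 to 8.65 at P0 and 6.81 to 7.68 at P8, and how much of the fall follows the amount of ganglion tissue in the pieces was not tested. Without the block, Nefm (adjusted p = 0.1593), Sncg (adjusted p = 0.2254), Elavl4 (adjusted p = 0.09762), Uchl1 (adjusted p = 0.4525), Gap43 (adjusted p = 0.4612), Syt1 (adjusted p = 0.0626) and Bex1 (adjusted p = 0.2941) did not pass, and Elavl4 did not without the second-set array of P8 (adjusted p = 0.06395). Of 23 axon guidance genes none rose and Sema3e (−1.15 ± 0.15), a repellent semaphorin, and Epha4 (−1.10 ± 0.12), an ephrin receptor, fell, Sema3e with an adjusted p of 0.08094 without the block. Among 17 Schwann cell and myelin genes Mal, a raft protein of myelin, rose from 9.08 and 9.15 to 10.79 and 10.26 (1.41 ± 0.16, 2.66-fold, adjusted p = 2.023e-04). The median of this list was 0.80 in the first set and 0.06 in the second. Mbp, myelin basic protein, was at 7.84 and 8.30 and then at 9.01 and 8.45 (0.66 ± 0.19, adjusted p = 0.03647).

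Bone genes had the highest median of the 45 lists. Of 10 tested genes of bone matrix and osteoblasts 8 rose against 2.28% of all tested genes and none fell, and the median was 2.01, with 1.87 in the first set and 2.22 in the other. Ibsp, Phex and Dmp1 were described above. Smpd3, a sphingomyelinase required for mineralization, went from 6.74 and 6.98 to 9.77 and 9.56 (2.81 ± 0.17, 7.0-fold, adjusted p = 4.779e-06). Alpl, tissue-nonspecific alkaline phosphatase, went from 7.66 and 7.95 to 9.50 and 10.23 (2.06 ± 0.13, 4.17-fold, adjusted p = 7.575e-06). Ifitm5, an osteoblast membrane protein, went from 7.09 and 7.08 to 8.84 and 9.25 (1.96 ± 0.16, 3.89-fold, adjusted p = 2.859e-05). Sp7, the osteoblast factor osterix, rose by 1.82 ± 0.25 and Omd, osteomodulin, by 1.71 ± 0.40 (adjusted p = 0.01459, 0.2156 without the block), whereas Sost, sclerostin of osteocytes, stayed at 7.39 and 7.20 against 7.58 and 7.17 (0.07 ± 0.16). The mean of the 3 defining bone markers measured, Ibsp, Dmp1 and Sp7, was 6.19 to 6.48 at P0 and 9.70 to 10.11 at P8, and whether more bone was left on the P8 pieces was not tested. Mean signals of bone marrow markers were at 5.60 to 5.70 at P0 and 5.64 to 5.66 at P8, under the level of 6 at both ages. None of the 6 tested genes of the bone marrow list passed. Of 5 tested osteoclast genes Mmp9, a matrix protease, rose from 6.85 and 7.21 to 9.14 and 8.69 (1.88 ± 0.25, adjusted p = 5.882e-04) and Acp5, tartrate-resistant acid phosphatase, from 7.51 and 7.08 to 8.84 and 8.73 (1.49 ± 0.18, adjusted p = 3.275e-04). Ctsk, cathepsin K, was higher by 0.89 ± 0.17 (adjusted p = 0.00442).

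Cartilage genes did not move one way. Of 15 tested genes 3 rose and 1 fell, against 2.28% and 1.15% of all tested genes, and the median was 0.25 (0.15 without the first-set array of P8). Ucma went from 8.88 and 9.45 to 12.48 and 12.38 and Chad from 7.24 and 7.46 to 9.96 and 11.27, while Col10a1, the collagen of hypertrophic cartilage, had a difference of −0.08 ± 0.19. Acan, aggrecan (1.45 ± 0.40, adjusted p = 0.03227), and Matn1, matrilin 1 (−1.21 ± 0.29, adjusted p = 0.01675), did not pass when any 1 of the 4 basal arrays was left out, with adjusted p of up to 0.2342 for Acan and 0.1433 for Matn1, nor without the block (0.1601 for Acan and 0.09773 for Matn1). Of 15 genes of tendon and small leucine-rich proteoglycans 2 rose: Tnmd, tenomodulin, from 7.08 and 7.09 to 9.58 and 9.94 (2.68 ± 0.29, 6.40-fold, adjusted p = 1.572e-04), and Kera, keratocan, from 6.80 and 6.83 to 8.04 and 7.95 (1.18 ± 0.15, adjusted p = 4.488e-04). Scx, the tendon transcription factor, was lower by 0.62 ± 0.15 (adjusted p = 0.01452).

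Of 23 tested matricellular and elastic fibre genes 7 fell and 2 rose, against 1.15% and 2.28% of all tested genes. Vcan, versican, a large proteoglycan of embryonic matrix, went from 9.38 and 9.74 to 7.66 and 7.65 (−1.90 ± 0.15, 3.74-fold, adjusted p = 1.866e-05). Postn, periostin, went from 10.38 and 10.82 to 8.64 and 9.14 (−1.71 ± 0.16, 3.27-fold, adjusted p = 7.81e-05). Spock3, a testican, fell by 1.91 ± 0.28, Ccn3 by 1.05 ± 0.14 and Fbn2, the fetal fibrillin, by 1.02 ± 0.11, besides Tnc and Smoc2. The risers were Emilin2, from 8.52 and 8.19 to 11.78 and 11.49 (adjusted p = 1.539e-07), and Ccn4 (1.43 ± 0.14), a Wnt-induced matricellular protein. Of 28 collagens 4 rose and none fell: Col8a1 (1.81 ± 0.16) and Col15a1 (1.14 ± 0.11), of vessel and basement membrane zones, and Col4a3 (1.34 ± 0.23) and Col4a4 (1.16 ± 0.23), which form the collagen IV network that matures in basement membranes. At any fold 7 collagens were higher and 3 lower, against 9.13% and 6.78% of all tested genes. The lower ones were Col6a3 (−0.996 ± 0.19, adjusted p = 0.004527), Col18a1 (−0.82 ± 0.16, adjusted p = 0.004971) and Col12a1 (−0.73 ± 0.15, adjusted p = 0.006902). Col4a3 was at 7.53 and 7.21 and then at 8.92 and 8.50. Col1a1 was at 9.87 and 8.90 at P0 and at 11.08 and 9.39 at P8, so that the sets differed more than the ages (0.85 ± 0.25, adjusted p = 0.0381). Of 14 laminins and other basement membrane genes Lama2 (1.21 ± 0.15) and Lamc3 (1.06 ± 0.13) rose and none fell. At any fold 4 of them were higher and 2 lower, Lama4 (−0.82 ± 0.16, adjusted p = 0.005912) and Lamb1 (−0.47 ± 0.11, adjusted p = 0.01209). Lama2 missed 2-fold without the first-set array of P0 (0.97), Lamc3 without that of P8 (0.95), and Col4a4 did not pass without either of them (adjusted p = 0.07758 and 0.09948) nor without the block (adjusted p = 0.1517).

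Of 17 tested genes of endothelium and the blood-labyrinth barrier 3 rose by 2-fold, against 2.28% of all tested genes, and none fell. At any fold 7 were higher, against 9.13%, and 16 had a positive difference. Slco1c1 was at 7.46 and 7.96 at P0 and at 11.32 and 11.09 at P8 (adjusted p = 4.364e-06). Slco1a4, another organic anion carrier of barrier vessels, went from 8.17 and 8.47 to 11.28 and 10.84 (2.74 ± 0.26, 6.68-fold, adjusted p = 7.909e-05). Abcb1a, the efflux pump P-glycoprotein, rose by 1.34 ± 0.21 (adjusted p = 0.001435, 0.4421 without the block). The barrier carriers Slc2a1 (0.52 ± 0.13, adjusted p = 0.0217) and Mfsd2a (0.04 ± 0.15, adjusted p = 0.8916) did not reach 2-fold. Among endothelial genes, Flt1 (0.61 ± 0.16, adjusted p = 0.02205), Plvap (0.50 ± 0.12, adjusted p = 0.01356) and Esam (0.49 ± 0.14, adjusted p = 0.04075) were higher under 2-fold, whereas Pecam1 (0.39 ± 0.16, adjusted p = 0.1411), Cdh5 (0.40 ± 0.18, adjusted p = 0.173) and Kdr (0.62 ± 0.22, adjusted p = 0.07806) did not pass. Of 8 pericyte and smooth muscle genes Acta2, smooth muscle actin, rose by 1.18 ± 0.14, Rgs5 by 1.21 ± 0.26 and Abcc9 by 1.04 ± 0.14, and Pdgfrb (0.29 ± 0.12) did not pass. Rgs5 passed in only 1 of the 4 fits with a basal array left out, and its adjusted p was 0.1365 without the first-set array of P0 and 0.09762 without the block, while Abcc9 missed 2-fold without that array (0.82) or without the second-set array of P8 (0.97).

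Macrophage genes were higher as a list, with a positive difference in all 18 tested and a median of 0.49. At any fold 9 were higher, against 9.13% of all tested genes, and 4 rose by 2-fold, against 2.28%. Lyz2, lysozyme, was at 7.44 and 8.09 at P0 and at 8.53 and 9.20 at P8 (1.10 ± 0.15, adjusted p = 7.415e-04). Csf1r, the receptor that macrophages need to survive, was at 8.42 and 8.39 and then at 9.60 and 9.22 (1.01 ± 0.13, adjusted p = 4.404e-04). Ly86 (1.15 ± 0.21) and Adgre1 (1.05 ± 0.16), a surface receptor of macrophages, rose too. Csf1r, Ly86 and Adgre1 lost the call without the first-set array of P0 (differences of 0.84, 0.98 and 0.86) and without that of P8 (0.96, 1.004 and 0.88), Csf1r also after a second quantile normalization (0.999), Ly86 by its adjusted p (0.06131 and 0.06307), and Lyz2, Ly86 and Adgre1 did not pass without the block (adjusted p = 0.3147, 0.1783 and 0.1804). Of 10 tested genes of complement, MHC class I and interferon response 3 rose: C2 (1.55 ± 0.16) and C4b (1.02 ± 0.15) of the complement cascade and Ifit3, an interferon-induced gene, by at least 3.33-fold. C2 went from 6.87 and 6.95 to 8.43 and 8.49 (adjusted p = 1.167e-04), whereas Ifit3 stood at 5.33 and 6.17 and then at 7.04 and 8.43 and did not pass without the block (adjusted p = 0.2364). C4b missed 2-fold without the second-set array of P0 (0.87) and without the first-set array of P8 (0.97).

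Genes that handle thyroid hormone, which triggers the onset of hearing, or respond to it changed in part. Of 10 tested genes 5 rose and 1 fell, against 2.28% and 1.15% of all tested genes. The median was 0.67, which was 0.20 with no filter on low signal and 0.24 with genes above 6 in any of the 6 groups. Dio2 and Slco1c1 were among the largest rises of all. Slc16a10, a carrier of thyroid hormone and aromatic amino acids, went from 7.24 and 7.67 to 8.52 and 8.82 (1.21 ± 0.12, adjusted p = 7.81e-05). Klf9, a transcription factor induced by thyroid hormone and by glucocorticoids, went from 8.60 and 8.40 to 9.70 and 9.94 (1.33 ± 0.24, adjusted p = 0.003612). Hr, the corepressor hairless, another thyroid-responsive gene, went from 7.10 and 6.97 to 8.28 and 8.00 (1.10 ± 0.14, adjusted p = 4.434e-04, with 0.94 without the first-set array of P8). Crym, which binds thyroid hormone in the cytosol, fell from 11.08 and 11.32 to 9.71 and 9.95 (−1.37 ± 0.18, 2.58-fold, adjusted p = 5.844e-04). In each of these 4 genes the P0 and P8 arrays lay apart in both sets. The remaining members did not pass: the receptors Thra (−0.40 ± 0.14, adjusted p = 0.08677) and Thrb (−0.26 ± 0.16, adjusted p = 0.3446), Ttr (−0.73 ± 0.48) and Thrsp (0.24 ± 0.14). Of 16 genes of retinoic acid metabolism 1 rose and 2 fell. Aldh1a1, a retinaldehyde dehydrogenase, went from 9.17 and 9.08 to 12.00 and 11.36 (2.55 ± 0.17, 5.87-fold, adjusted p = 8.558e-06), while the binding proteins Crabp1 and Crabp2 (−1.37 ± 0.26, adjusted p = 0.004811) fell. Aldh1a2 (0.74 ± 0.12) and Aldh1a3 (−0.67 ± 0.14), which make retinoic acid as well, differed in direction. Crabp2 did not pass without the first-set array of P0 (adjusted p = 0.06413), without the second-set array of P8 (adjusted p = 0.05062) or without the block (adjusted p = 0.05051).

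Of 21 tested Wnt genes 4 rose and 2 fell by 2-fold, against 2.28% and 1.15% of all tested genes. At any fold 8 were higher and 6 lower, against 9.13% and 6.78%. Sfrp4 and Wif1 rose, the latter from 7.92 and 7.25 to 9.76 and 9.12 (1.85 ± 0.14, 3.60-fold, adjusted p = 1.516e-05, 0.1222 without the block). Sfrp2 fell from 10.74 and 10.54 to 8.96 and 8.76 (−1.78 ± 0.13, 3.43-fold, adjusted p = 1.374e-05), and Sfrp1 by 1.06 ± 0.15. So members of the same family of secreted frizzled-related proteins were found on both sides. The ligand Wnt2b (1.26 ± 0.18) and the antagonist Dkk2 (1.13 ± 0.18) rose. The antagonists Frzb (0.76 ± 0.14), Dkk1 (0.64 ± 0.18), Dkk3 (−0.65 ± 0.12) and Sfrp5 (0.33 ± 0.20) did not reach 2-fold. Sfrp1 (adjusted p = 0.4095) and Dkk2 (adjusted p = 0.09709) did not pass without the block, and Sfrp1 missed 2-fold without the second-set array of P8 (−0.86). Of 24 BMP, activin and TGF-beta genes Bmp6, a ligand, rose from 7.80 and 8.57 to 9.86 and 10.42 (1.96 ± 0.14, 3.88-fold, adjusted p = 1.323e-05) and Sostdc1, an antagonist, fell from 9.25 and 10.13 to 8.00 and 8.65 (−1.36 ± 0.13, adjusted p = 6.862e-05, 0.1486 without the block). Of 15 FGF genes none rose and Fgf10, a ligand of the otic epithelium, fell from 8.51 and 8.95 to 7.30 and 6.71 (−1.73 ± 0.26, 3.32-fold, adjusted p = 0.001182).

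Other lists gave few calls. Of 14 clock and glucocorticoid output genes Nr1d1, a repressor of the circadian clock, rose by 1.13 ± 0.15 (0.85 without the second-set array of P8), and Fkbp5, a glucocorticoid target, was lower by 0.89 ± 0.21 (adjusted p = 0.01622). Time of day at dissection was not given in the sources used here. Of 14 antioxidant genes Gsta4 (1.16 ± 0.22) and Gpx3 (1.04 ± 0.19) rose. Gsta4 did not pass without the second-set array of P8 (adjusted p = 0.06174) or of P0 (adjusted p = 0.05834). Gpx3, whose ages overlapped between the sets, did not pass without the second-set array of P8 (adjusted p = 0.05015), without the first-set array of P0 (adjusted p = 0.0528) or without the block (adjusted p = 0.7142). All 22 genes of the respiratory chain had a positive difference with a median of 0.31 (0.16 without the second-set array of P0), but Ndufa1, a complex I subunit, was alone in rising by 2-fold (1.08 ± 0.16, adjusted p = 9.277e-04, 0.6198 without the block), and it missed 2-fold without the first-set array of P0 (0.97) or the second-set array of P8 (0.86). None of 11 cholesterol synthesis genes rose or fell by 2-fold, nor did any of 9 anterior Hox genes, 10 reference genes (median 0.03), 4 vestibular and otoconial, 5 red blood cell, 5 adipocyte or 14 skeletal muscle genes. In skeletal muscle, 2 genes were higher at any fold, and its 5 markers had mean signals of 6.64 to 7.03 at P0 and 6.66 to 6.69 at P8. Oc90, an otoconial protein also made in cochlear epithelium at birth, was at 12.52 and 12.57 and then at 11.54 and 11.73 (−0.91 ± 0.17, adjusted p = 0.00425). Of the 553 genes that rose or fell, 422 were in none of the 45 lists.

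Pieces of the same pools allow the change in the base to be set against that in the apex. The test of the difference passed 29 genes (0.18% of those tested), 23 with a change lower in the base and 6 with a change higher in the base. All 29 differed in the same direction in both sets, which the test itself favours. The count is unsteady: it was 0 without the block, 91 with the pool as a further random block, and 1 to 13 when 1 array of base or apex was left out, the lowest with the second-set array of P0-base or of P8-base left out. All 29 were among the 91, but that fit uses the same arrays and contrast, so the overlap is no independent support. Tecta had the lowest adjusted p, as it fell by 3.19 ± 0.11 in the base and by 1.02 ± 0.11 in the apex, a difference of −2.17 ± 0.16 (adjusted p = 0.0005709). At P0 its means were 12.02 in the base and 12.42 in the apex, and at P8 they were 8.83 and 11.40.

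**Figure D4:**
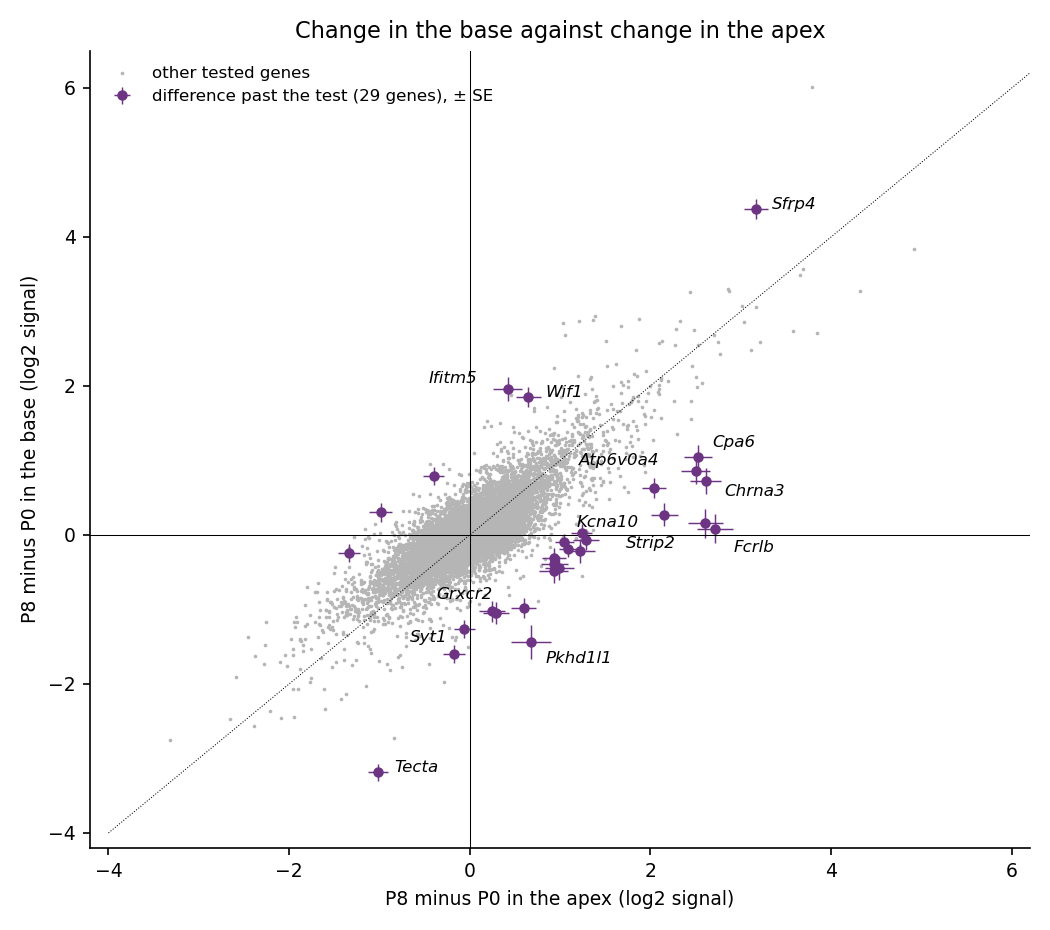
P8 minus P0 in the apex (x axis) and in the base (y axis), as differences in log2 signal, for all tested genes (grey) and the 29 genes whose 2 changes differed (purple, with bars of ± SE). The dotted line marks equal change, and 23 of the 29 lie under it, among them Tecta at −1.02 and −3.19.

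In 12 of the 23 genes with a lower change in the base the difference was negative in the base and positive in the apex. Pkhd1l1, a large protein of the stereocilia surface coat, went from 7.65 to 6.21 in mean in the base and from 5.79 to 6.47 in the apex (difference of changes −2.12 ± 0.32, adjusted p = 0.03607), where its apical P0 mean under 6 leaves the size of that difference uncertain. Grxcr2, a stereocilia protein of the bundle base, was lower by 0.98 ± 0.14 in the base and higher by 0.60 ± 0.14 in the apex (−1.58 ± 0.20, adjusted p = 0.01629). In others the base did not pass and the apex rose. Fcrlb, an Fc receptor-like protein, was at 8.95 and 9.41 at P0 and at 9.44 and 9.08 at P8 in the base (0.08 ± 0.19), and rose by 2.72 ± 0.19 in the apex (−2.63 ± 0.28, adjusted p = 0.01068). Strip2 (0.16 ± 0.19 against 2.61 ± 0.19, difference −2.45 ± 0.27) and Kcna10 (0.27 ± 0.15 against 2.15 ± 0.15, difference −1.88 ± 0.22), the latter a potassium channel of the inner ear, had the same adjusted p. Atp6v0a4, a proton pump subunit (0.85 ± 0.16 against 2.50 ± 0.16), and Cpa6, a carboxypeptidase (1.04 ± 0.16 against 2.53 ± 0.16), were higher in both regions but by less in the base, with differences of −1.65 ± 0.23 and −1.48 ± 0.22. Chrna3, a nicotinic receptor subunit, had P0 means under the level of 6 in base (5.70) and apex (5.53), against 6.42 and 8.14 at P8, so that the sizes of its changes are not measured. The rise of Cpa6 in the base missed 2-fold without the first-set array of P0 (0.81) and did not pass without the block (adjusted p = 0.5084). On the other side, Ifitm5 rose by 1.96 ± 0.16 in the base and was 0.42 ± 0.16 higher in the apex (1.54 ± 0.23, adjusted p = 0.03607), Sfrp4 rose in both regions (fitted difference of changes 1.21 ± 0.19, adjusted p = 0.038, with a basal P0 mean of 5.92 that makes its size uncertain), and Wif1 by 1.85 ± 0.14 against a difference of 0.65 ± 0.14 (1.20 ± 0.20, adjusted p = 0.04652). The change in the middle lay between those of base and apex in 28 of the 29 genes. Against the middle, no gene passed (275 at an unadjusted p under 0.05 from limma, and 1 with the pool as a block).

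**Figure D5:**
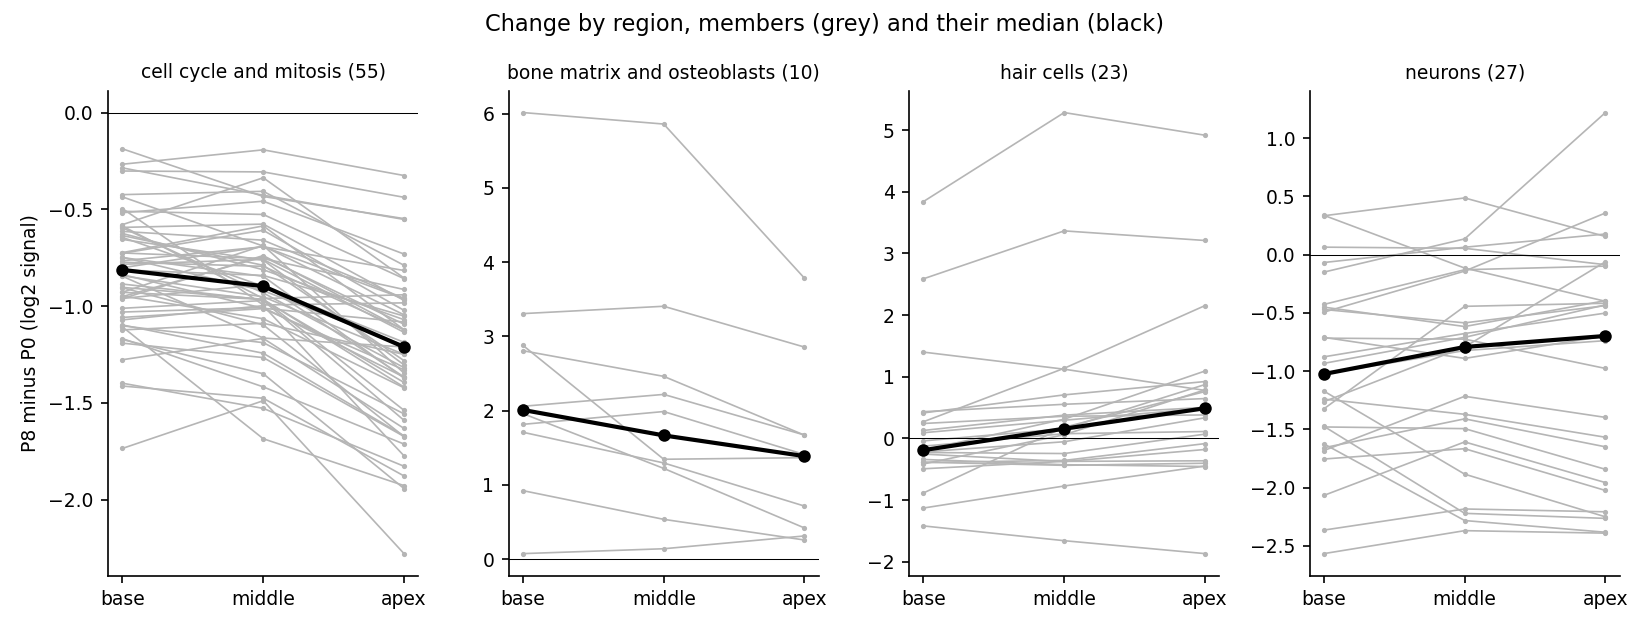
P8 minus P0 as a difference in log2 signal (y axis, its range set for each panel) in the base, middle and apex (x axis) for each tested member (grey lines) and the median (black) of 4 lists. From base to apex the median went from −0.81 to −1.21 for the cell cycle, from 2.01 to 1.39 for bone, from −0.19 to 0.49 for hair cells and from −1.02 to −0.70 for neurons.

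The medians of several lists differed by region, although few of their members passed the test of the difference. All 55 cell cycle genes were lowered by less in the base than in the apex, with medians of −0.81, −0.90 and −1.21 in base, middle and apex, and none of the 55 passed the test of the difference. Of the 10 bone genes 9 had a higher difference in the base than in the apex, with medians of 2.01, 1.67 and 1.39. Ibsp was higher by 6.02 ± 0.39 in the base and by 3.78 ± 0.39 in the apex (adjusted p of the difference 0.26). Among hair cell genes 19 of 23 and among hair bundle genes 20 of 24 had a lower difference in the base than in the apex, with medians of −0.19 and −0.35 in the base and 0.49 and 0.15 in the apex. Ocm rose by 3.84 ± 0.30 in the base and by 4.92 ± 0.30 in the apex (adjusted p of the difference between base and apex 0.705). Tnc fell by 2.73 ± 0.23 in the base and was 0.84 ± 0.23 lower in the apex (adjusted p of the difference 0.06472). These lists share arrays and pools, so that their medians are not independent of each other.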

How the data were processed

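RNA of pooled cochlear pieces was hybridized to Affymetrix Mouse Gene 1.0 ST arrays, 2 arrays for each of 6 groups of age and region. The authors scanned the arrays and deposited log2 signals made by RMA, which corrects background, sets all arrays to 1 distribution and summarises the probes of an entry. Whether both dissection sets went through RMA together is not given in the sources used here. RMA compresses differences at low signal, so folds of dim genes are bounds against a log2 level of 6. Array data carry no read depth, and 2 arrays per age limit the precision.

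Of 35556 entries, 21789 had 1 gene symbol, 1621 several and 12146 none, and the entry with the highest mean over 12 arrays stood for each of 19938 genes. The other entries were left out. Of these genes, 19855 were matched to current symbols through their Entrez identifier. The main test was limma on all 12 arrays, with 6 group means and the dissection set as a block, Benjamini-Hochberg adjustment over the 16129 tested genes and thresholds of 0.05 and 2-fold. The study describes a repeat of the dissection for a second set of P0 and P8 pools, the year in the sample titles was taken to mark the set, and arrays of 1 set in P0-base and P8-base deviated together (correlation 0.74). The change in base minus that in the apex was a contrast of the same fit.

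The 45 gene lists held 799 members, of which 746 were matched on the array. The members and lists were chosen with earlier results of these data known. Named genes were the 15 with the largest rise and the 15 with the largest fall, the first 3 members of each list, up to 6 members of a list past the test, and the 10 genes with the largest difference between base and apex. Not all of these are described in the text. Other genes named, such as the remaining members past the test and those further marker genes given for comparison, were chosen after their values were seen. Promoters came from a RefSeq table, where motifs were searched on both strands. The fit was tested on simulated data with noise drawn independently for each array, which does not cover dependence between pieces of the same pool. Alternatives were no block, the basal arrays alone, the pool as a random block, other filters, folds and normalizations, the mean of all entries, the methods' t-test and each array left out. Fits ran in R 4.3.3 with limma 3.58.1, tables in Python 3.11.15 with pandas 2.3.3 and numpy 2.4.6, and plots in matplotlib 3.10.9.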

Additional observations from a re-analysis of the deposited data

Results flagged for a closer look

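The P8 against P0 change differed between base and apex, by the test of the difference itself, in 29 genes. The 10 with the largest difference of changes, base minus apex in log2 signal, were Fcrlb (−2.63), Strip2 (−2.45), Tecta (−2.17), Pkhd1l1 (−2.12), Chrna3 (−1.89), Kcna10 (−1.88), Atp6v0a4 (−1.65), Grxcr2 (−1.58), Ifitm5 (1.54) and Cpa6 (−1.48). Chrna3 (base and apex) and Pkhd1l1 (apex) had P0 means under the log2 level of 6, so their sizes are uncertain. With 2 arrays per group, no search for single outlying arrays within a group was made.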

How the results depend on the processing

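Without the block for the dissection set, 246 genes were higher and 111 lower at P8 in the base, and 0 differed between base and apex. With the pool as a random block beside the replicate block, 91 genes differed between base and apex. At a fold of at least 1.5, 1023 genes were higher and 688 lower. The methods' t-test on the same values gave 222 higher and 98 lower genes at its unadjusted threshold and 0 and 0 after Benjamini-Hochberg adjustment, with a smallest adjusted p of 0.1708. With the middle in place of the apex, 0 genes differed. Leaving out 1 array at a time gave 294 to 471 higher genes, 158 to 227 lower genes and 1 to 13 genes that differed between base and apex. Of the genes called, 236 higher and 106 lower ones kept their call without each of the 4 basal arrays. The other alternatives left the counts for which they were run within 1.5 times the main value, and no result reversed. The difference between base and apex was not run on the basal arrays alone, which hold no apex, or with the mean of all entries. Among 126 named genes past the test, 36 lost the call without the block, 4 with the mean of all entries, 2 after a second quantile normalization and 1 with a trended, robust spread. The cause was not tested.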
